A study of Mus musculus with 2 samples.

Results

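The 6 genes of the mouse type IV collagen family, Col4a1, Col4a2, Col4a3, Col4a4, Col4a5 and Col4a6, were taken by their symbols from the gene tables of both libraries, which list the same 19070 genes; all 6 were found in each. Type IV collagen is the sheet-forming collagen of basement membranes. Its chains wind around each other into helical protomers that join end to end and side to side into a network, onto which laminins, nidogens and perlecan are bound. Protomers of Col4a1 and Col4a2 chains are found in nearly all basement membranes, including those of blood vessels. Col4a3, Col4a4 and Col4a5 chains form the network of the kidney glomerulus and the lung alveolus, and Col4a5 pairs with Col4a6 in basement membranes such as those of skin and smooth muscle.

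The libraries came from subcutaneous tumours of Lewis lung carcinoma, a cell line from a mouse lung tumour that is transplanted into mice. Mice of the control library received an IgG2a isotype antibody according to the sample labels, while the series text calls these cells untreated. Mice of the other library received anti-PD-1, an antibody that blocks a T-cell receptor which restrains T cells, and the tumour was taken 7 days after treatment according to the series text, which gives no time for the control. Each group was 1 library; mouse strain, age and the number of mice in each library are not given in the sources used here. Without replicate libraries no test between the groups could be made: every interval below is a 95% exact interval that covers counting error only, and every difference is a difference between these libraries.

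There were 8441 cell barcodes in the control library, holding 113268618 UMIs (unique molecular identifiers, each standing for a captured molecule; median 7385 per barcode). There were 9423 in the anti-PD-1 library, holding 115407230 UMIs (median 8743); 107 barcode sequences occurred in both libraries. Cells were put in classes by UMIs of marker genes, with cuts set after the data were seen, and without clustering. Tumour cells were those with at least 5 UMIs and 500 CPM (UMIs scaled to a total of 1000000 per cell, or per class where cells are summed) over Hmga2, Igf2bp1, Igf2bp2, Igf2bp3 and Wnt7b, genes of the carcinoma line, and no other class past its cut; there were 3458 in the control and 4883 in the anti-PD-1 library, and their median depths were 17302.5 and 13964 UMIs. Cells with those tumour markers and at least 1000 CPM of fibroblast markers (Dcn, Lum, Dpt, Pi16, Clec3b, Fbln1, Mfap4 and Cygb) were kept apart as tumour and fibroblast cells, 279 and 356. Near the tumour cut, 685 control and 679 anti-PD-1 cells had 400 to 600 CPM of the tumour markers. Endothelial cells numbered 43 and 21 and mural cells, the contractile cells around vessels, 7 in each library. No class was given to 3390 control cells and 2757 anti-PD-1 cells, which held 30.6% and 21.3% of all Col4a1 UMIs. No doublet caller was run, so droplets that held a pair of cells may remain in every class.

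Cells that met the fibroblast markers and lacked the tumour markers fell into separate groups on Col1a1, a chain of type I collagen that most fibroblasts make, and the markers did not all point the same way. Of 70 such cells in the control, 38 had no Col1a1 UMI and 20 had more than 10000 CPM; of 102 in the anti-PD-1 library, 64 had none and 20 had more than 10000 CPM. Only 2 and 1 cells lay between 1000 and 4000 CPM, and the groups were split at 2000 CPM. The Col1a1-high cells, 22 and 21, carried Pi16, a marker of adventitial fibroblasts, at 1158 and 1748 CPM. The Col1a1-low cells, 48 and 81, had Col1a1 at 38.8 and 63.1 CPM. Tumour cells had 41.0 and 29.8 CPM, and macrophages and monocytes 101 and 139 CPM. The Col1a1 intervals of Col1a1-low and tumour cells overlap in the control and lie apart in the anti-PD-1 library. In the Col1a1-low cells Col3a1 was 23197 and 35387 CPM and the growth factor Ptn 4896 and 7111 CPM. In the Col1a1-high cells Col3a1 was 57093 and 64570 CPM and Ptn 224 and 51.8 CPM, so that Col3a1 was the lower in the Col1a1-low cells. Sparc was lower there too, at 833 and 1354 CPM against 16732.5 and 22848.5 CPM, as was Mmp2, at 5.97 and 0 CPM against 1270 and 1832 CPM. Gsn was 1948 and 1813 CPM against 2008 and 4442 CPM, with intervals that overlap in the control. Some other fibroblast genes were instead as high or higher in the Col1a1-low cells. Pdgfra, a fibroblast receptor gene that the rule did not use, was 412 and 551 CPM there against 348 and 395 CPM in the Col1a1-high cells, with intervals that overlap in each library. The rule left Pdgfra out because tumour cells held it too, at 97.9 and 178 CPM. Lum and Dcn, which are among the markers of the rule, were 1323 and 1861 CPM against 688 and 1146 CPM, and 2584 and 2550 CPM against 1925 and 3438 CPM, so that Dcn was the higher in the control only. Pi16, also a marker of the rule, was 128 CPM in the control and 6.47 CPM in the anti-PD-1 Col1a1-low cells (43 and 4 UMIs). Hmga2 was at 44.8 and 38.8 CPM in the Col1a1-low cells, a low level that the rule itself sets, since these cells had to be under 200 CPM of the tumour markers. Dkk2, a gene that the rule did not use, was 484 and 574 CPM in these cells, beside 256 and 591 CPM in tumour cells. Ncam1 was 146 and 105 CPM, beside 76.4 and 75.4 CPM. Mki67 was lower than in tumour cells, at 68.7 and 167 CPM beside 267 and 290 CPM. Lama5 was 95.6 and 108 CPM, between the tumour cells (214 and 311 CPM) and the Col1a1-high cells (14.8 and 12.9 CPM). What kind of cell the Col1a1-low cells are, including whether they are tumour cells low in the tumour markers, was not tested. They are called by their rule here.

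The family lies in 3 head-to-head pairs in the mouse genome, which are shown here because the counts below are given pair by pair. In the GENCODE M21 annotation (build GRCm38, the sequence of mm10), Col4a1 (ENSMUSG00000031502) occupies chr8:11198423-11312826 on the minus strand and Col4a2 (ENSMUSG00000031503) chr8:11312805-11449287 on the plus strand, so that their annotated ends overlap by 22 bases. Col4a4 (ENSMUSG00000067158, chr1:82448423-82586849, minus) and Col4a3 (ENSMUSG00000079465, chr1:82586921-82722059, plus) start 72 bases apart. Col4a6 (ENSMUSG00000031273, chrX:141165403-141474076, minus) and Col4a5 (ENSMUSG00000031274, chrX:141475385-141689234, plus) start 1309 bases apart. All 6 are protein-coding genes.

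Start-site windows from RefSeq (build GRCm38.p6), each from 250 bases before to 50 bases after a start, matched 5 of the 6 genes by symbol. The windows of Col4a1 (chr8:11312777-11313076, minus strand) and Col4a2 (chr8:11312555-11312854, plus strand) share 78 bases, chr8:11312777-11312854, which are in capitals below and read as reverse complements of each other.
Col4a1: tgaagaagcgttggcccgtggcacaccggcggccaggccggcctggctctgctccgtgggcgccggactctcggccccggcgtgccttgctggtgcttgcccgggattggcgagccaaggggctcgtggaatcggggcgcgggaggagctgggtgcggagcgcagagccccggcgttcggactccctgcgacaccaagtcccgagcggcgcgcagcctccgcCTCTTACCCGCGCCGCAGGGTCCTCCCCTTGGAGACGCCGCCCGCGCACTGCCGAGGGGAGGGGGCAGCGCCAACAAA
Col4a2: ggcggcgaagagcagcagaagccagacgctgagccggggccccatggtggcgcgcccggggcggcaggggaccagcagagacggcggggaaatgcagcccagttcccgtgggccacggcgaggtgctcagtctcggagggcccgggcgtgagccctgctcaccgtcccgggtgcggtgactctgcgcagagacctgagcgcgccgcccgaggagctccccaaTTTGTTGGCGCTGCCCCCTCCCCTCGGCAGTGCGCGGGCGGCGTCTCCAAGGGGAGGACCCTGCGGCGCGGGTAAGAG
The windows of Col4a5 (chrX:141475169-141475468, plus strand) and Col4a6 (chrX:141474027-141474326, minus strand) do not overlap; capitals mark the motifs found in them.
Col4a5: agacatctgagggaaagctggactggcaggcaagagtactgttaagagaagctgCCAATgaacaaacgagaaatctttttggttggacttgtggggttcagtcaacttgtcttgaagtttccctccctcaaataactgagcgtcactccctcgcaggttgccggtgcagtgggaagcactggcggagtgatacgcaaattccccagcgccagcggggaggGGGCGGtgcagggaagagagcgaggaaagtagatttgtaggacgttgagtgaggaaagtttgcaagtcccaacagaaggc
Col4a6: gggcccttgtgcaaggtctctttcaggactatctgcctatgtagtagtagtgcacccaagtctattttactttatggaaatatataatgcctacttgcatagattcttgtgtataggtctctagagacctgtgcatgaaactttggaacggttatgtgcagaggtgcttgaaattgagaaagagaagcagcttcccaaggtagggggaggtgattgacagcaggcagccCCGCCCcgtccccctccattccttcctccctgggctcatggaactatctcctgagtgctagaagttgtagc
The letters searched on both strands were GGGCGG (GC box), CCAAT and TATAAA, and no match overlaps a match of another motif. Col4a5 holds 1 GC box and 1 CCAAT, and Col4a6 holds 1 GC box, written there as its complement. Col4a1 holds 1 GC box and 1 CCAAT, and Col4a2 holds 3 GC boxes and 1 CCAAT. The GC box of Col4a1 lies in the shared bases and is the same site as 1 of the 3 of Col4a2. None of these 4 windows holds TATAAA. Of 32851 RefSeq windows of the same length, 35.7% hold a GC box, 37.4% CCAAT and 13.6% TATAAA. The G and C content is 74.0% for Col4a1, 73.7% for Col4a2, 52.7% for Col4a5 and 48.3% for Col4a6, beside a median of 52.7% over all windows. A match describes letters and not a bound site.

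Col4a1 and Col4a2, the chains of the general basement membrane network, were highest per UMI in endothelial cells and were carried mostly, in total, by tumour cells. Col4a1 reached 15548 CPM (15132 to 15972) in the 43 control endothelial cells and 21495 CPM (20638 to 22379) in the 21 anti-PD-1 cells. These levels were 29.1-fold (28.3 to 29.9) and 33.6-fold (32.3 to 35.04) those of the tumour cells of the same library. Among endothelial cells the median cell had 11771 CPM in the control and 19140 CPM in the anti-PD-1 library, and the highest cells had 35649 and 72770 CPM. Col4a2 in endothelial cells was 9364 and 12855 CPM, 32.5-fold and 36.6-fold the tumour level. The 7 mural cells of each library had Col4a1 at 11922 and 9217 CPM; 1 cell held 48.3% of the mural Col4a1 UMIs in the control and 61.9% in the anti-PD-1 library. The order of Col4a1 levels in the control was thus endothelial, mural, Col1a1-low fibroblast-marker cells (1132 CPM, 1021 to 1252), Col1a1-high cells (874 CPM, 777 to 980), tumour and fibroblast cells (824 CPM, 800 to 850), tumour cells (534 CPM, 530 to 539), then the immune classes. The intervals of the Col1a1-high and the tumour and fibroblast cells overlap, and all the other neighbours named before the immune classes are apart by counting error. This order is of class sums in the control only. The median control cell had 373 CPM among Col1a1-high cells, under the 445 CPM among tumour cells. In the anti-PD-1 library the Col1a1-high sum was 673 CPM, under the 1082 CPM of tumour and fibroblast cells. That sum was 1.05-fold (0.86 to 1.28) the tumour level.

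**Figure D1:**
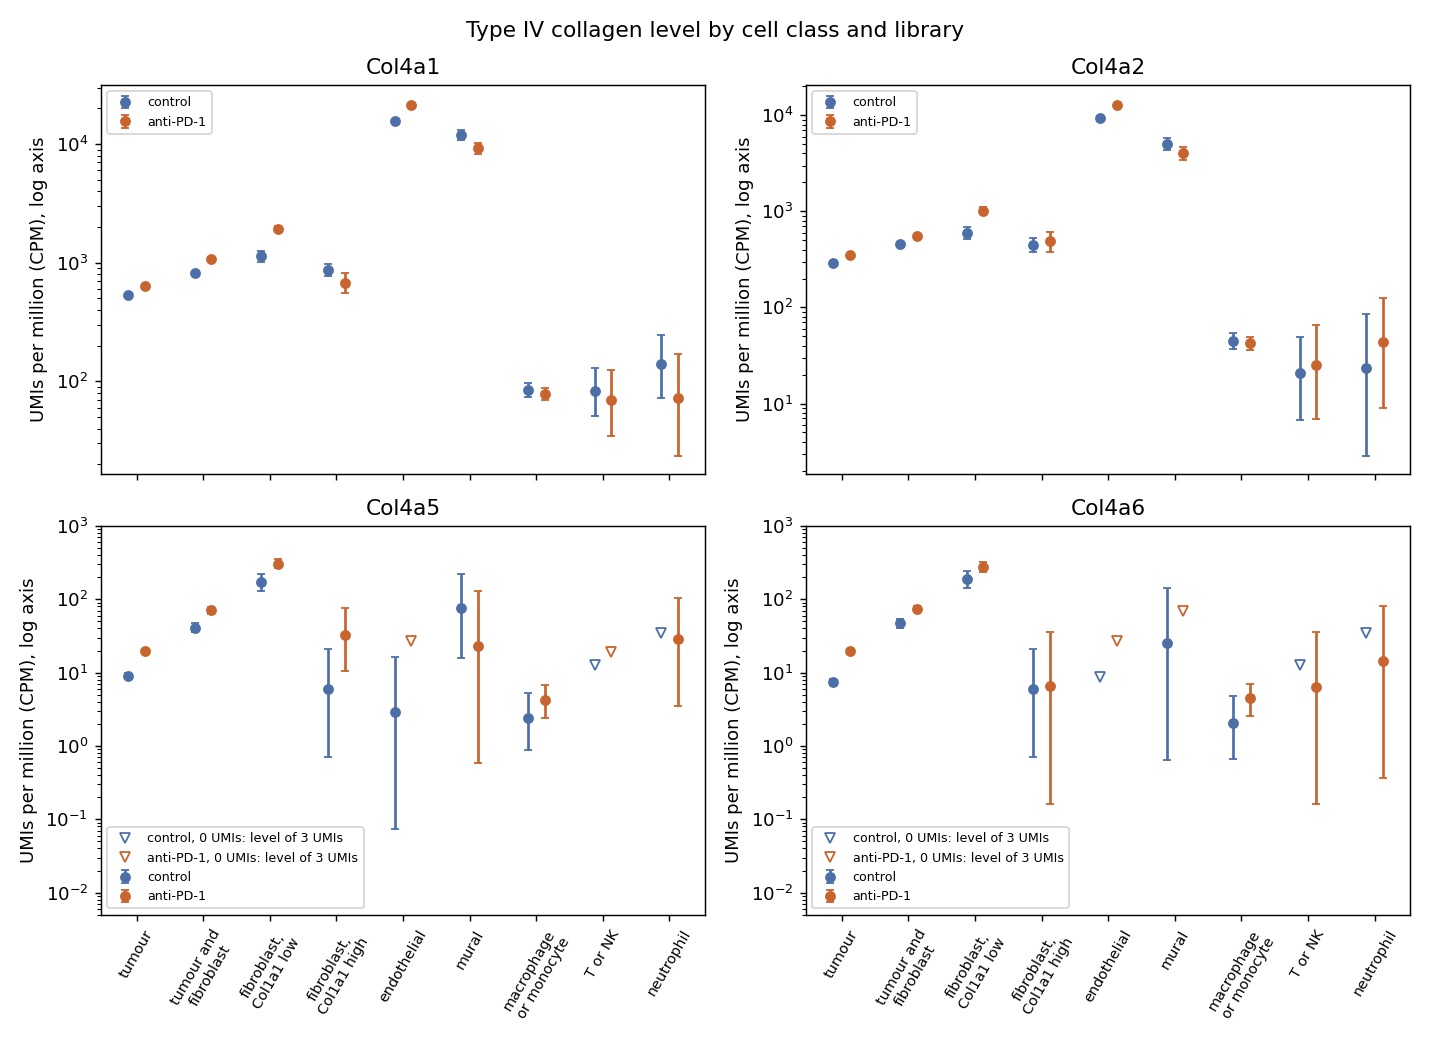
Level of 4 type IV collagen genes (y axis, CPM, log axis; the scale differs between panels) in 9 classes of cells (x axis) of the control and anti-PD-1 library; points are sums over the cells of a class, bars are exact 95% Poisson intervals, and open triangles stand at the level of 3 UMIs where no UMI was counted. Col4a1 and Col4a2 are highest in endothelial and mural cells, and Col4a5 and Col4a6 are highest in the Col1a1-low fibroblast-marker cells.

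Macrophages and monocytes gave the background that free RNA can produce in cells that should lack these chains. Col4a1 was at 85.1 CPM in the 852 control macrophages and 78.6 CPM in the 1094 anti-PD-1 macrophages, 0.159 and 0.123 of the tumour level. T and NK cells had 83.5 and 69.8 CPM, and the intervals of macrophage and T or NK cell levels overlap in each library. With each cell thinned to 3000 UMIs, a Col4a1 UMI was present in 70.9% of tumour cells of the control and 72.6% of those of the other library, against 14.4% and 18.3% of macrophages; 30 and 49 tumour cells and 602 and 712 macrophages were too shallow and left out. Without thinning the shares were 95.8% and 94.96% in tumour cells and 16.5% and 18.4% in macrophages, at median depths of 2107 and 2292 UMIs in the macrophages. Tumour cells were therefore above background for Col4a1 in both libraries.

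Because tumour cells were so numerous, they held 55.5% of all control Col4a1 UMIs (43480 of 78284) and 66.6% of those of the anti-PD-1 library (55590 of 83463). The 43 control endothelial cells held 6.76% and the 21 anti-PD-1 endothelial cells 2.83%. Cells with both tumour and endothelial markers, 34 and 6, held another 6.36% and 0.815%. Col4a2 was divided alike, with 54.2% and 67.9% in tumour cells and 7.38% and 3.14% in endothelial cells. Over the whole library Col4a1 was 691 CPM in the control and 723 CPM in the anti-PD-1 library, a log2 ratio of 0.07 (0.05 to 0.08), and Col4a2 was 381 and 390 CPM, a log2 ratio of 0.03 (0.01 to 0.05). In such a whole-library sum, fewer cells of a type and less RNA per cell cannot be told apart. Endothelial cells were 0.512% of kept cells in the control (0.371 to 0.689) and 0.223% in the anti-PD-1 library (0.138 to 0.340); the part of this share in the whole-library ratio was not tested. In cells given no class the log2 ratio was -0.09 (-0.12 to -0.06) for Col4a1 and -0.24 (-0.28 to -0.21) for Col4a2, and their part was not tested either.

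Within tumour cells Col4a1 was 534 CPM in the control and 639 CPM in the anti-PD-1 library, a log2 ratio of 0.26 (0.24 to 0.28). Col4a2 was 288 and 352 CPM, a log2 ratio of 0.29 (0.26 to 0.31). Both were thus about equally higher in the anti-PD-1 library, by 1.20-fold and 1.22-fold. By CPM of single unthinned cells, the lower quartile of Col4a1 was 235 CPM in control and 232 CPM in anti-PD-1 tumour cells. The median was 445 and 501 CPM, and the upper quartile 757 and 970 CPM. The anti-PD-1 cells were shallower (median 13964 against 17302.5 UMIs), and the part of depth in these quartiles was not tested. Tumour and fibroblast cells had Col4a1 at 824 and 1082 CPM (log2 ratio 0.39, 0.33 to 0.45) and Col4a2 at 462 and 550 CPM (0.25, 0.17 to 0.33); with the tumour markers other than Hmga2 the Col4a2 ratio of these cells was -0.0056. In Col1a1-low fibroblast-marker cells Col4a1 was 1132 and 1920 CPM (0.76, 0.59 to 0.93) and Col4a2 594 and 1017 CPM (0.77, 0.54 to 1.01). The Col1a1-low cells of the libraries also differed in other genes: Pi16 was the lower in the anti-PD-1 library, as given above, and Mki67, a gene of dividing cells, was 68.7 and 167 CPM (23 and 103 UMIs; log2 ratio 1.28, 0.61 to 1.998); the part of such a difference in the collagen ratios was not tested. Endothelial cells had log2 ratios of 0.47 (0.40 to 0.54) for Col4a1 and 0.46 (0.37 to 0.55) for Col4a2. Endothelial markers summed to a median of 77.5 CPM per tumour cell in the control and 54.5 CPM in the anti-PD-1 library, macrophage markers to 319 and 311 CPM, and haemoglobin and other erythroid markers to 418 and 0 CPM; the part of such RNA in the collagen ratios was not tested. In macrophages the intervals of the ratio included 0, at -0.11 (-0.37 to 0.15) for Col4a1 and -0.08 (-0.44 to 0.28) for Col4a2. The Col1a1-high cells differed in sign, with Col4a1 at 874 and 673 CPM (-0.38, -0.71 to -0.05) and Col4a2 at 449 and 486 CPM (0.11, -0.31 to 0.52), but 1 cell held 22.0% of their control and 22.1% of their anti-PD-1 Col4a1 UMIs, and with the tumour markers other than Hmga2 the Col4a1 ratio turned to 0.29.

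The ratio of Col4a1 to Col4a2 UMIs differed between some classes. It is not a ratio of transcripts, since each gene is read by its own probes, but 1 pair can be compared between classes. In tumour cells it was 1.86 (1.83 to 1.89) in the control and 1.82 (1.79 to 1.84) in the anti-PD-1 library, and in Col1a1-low fibroblast-marker cells 1.90 (1.60 to 2.27) and 1.89 (1.71 to 2.08). Endothelial cells had a lower ratio, 1.66 (1.59 to 1.74) and 1.67 (1.56 to 1.79), and mural cells a higher one, 2.39 (2.02 to 2.83) and 2.29 (1.91 to 2.75); in both libraries these intervals lie apart from each other. The mural ratio rests in large part on 1 of 7 cells in each library. That cell held 48.3% and 61.9% of the mural Col4a1 UMIs, and 1 cell held 44.2% and 60.7% of the mural Col4a2 UMIs. Tumour and fibroblast cells had 1.79 (1.70 to 1.88) and 1.97 (1.88 to 2.06), with intervals that lie just apart, and Col1a1-high cells 1.95 (1.60 to 2.38) and 1.39 (1.02 to 1.89), with intervals that overlap. At 3000 UMIs per cell, 1446 of 3428 control tumour cells had UMIs of both genes, 1.11 times the product of the single shares, and 2283 of 4834 anti-PD-1 tumour cells, 1.12 times the product.

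Col4a5 and Col4a6, the X-linked pair, were distributed otherwise. Neither was detected above background in endothelial cells. Col4a5 had 1 UMI in the 43 control endothelial cells and none in the 21 anti-PD-1 cells, and Col4a6 none in either, where 3 UMIs would have been 8.81 CPM in the control and 27.3 CPM in the anti-PD-1 library. The highest levels were in the Col1a1-low fibroblast-marker cells. Col4a5 was 170 CPM (129 to 221; 57 UMIs) in the 48 control cells and 307 CPM (265 to 354; 190 UMIs) in the 81 anti-PD-1 cells. Col4a6 was 188 CPM (145 to 241; 63 UMIs) and 277 CPM (237 to 321; 171 UMIs). Relative to tumour cells of the same library, Col4a5 was 18.7-fold (14.1 to 24.6) and 15.8-fold (13.5 to 18.4) higher, and Col4a6 25.1-fold (19.0 to 32.5) and 13.8-fold (11.7 to 16.2). Among these cells a Col4a5 UMI was present in 27 of 48 in the control and 56 of 81 in the anti-PD-1 library, and a Col4a6 UMI in 27 and 55.

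The Col1a1-high cells had few UMIs of this pair. Col4a5 had 2 UMIs in the 22 control cells (5.91 CPM, 0.715 to 21.3) and 5 UMIs in the 21 anti-PD-1 cells (32.4 CPM, 10.5 to 75.5). The anti-PD-1 level was 1.67-fold (0.540 to 3.89) that of the tumour cells of that library, an interval that includes no difference. A Col4a5 UMI was present in 23.8% of these anti-PD-1 cells, beside 25.1% of the deeper tumour cells. Col4a6 had 2 UMIs and 1 UMI. Their median depths were 11504 and 6499 UMIs, beside 6197 and 7555 UMIs for the Col1a1-low cells, so that the Col1a1-high cells were the deeper in the control and the shallower in the anti-PD-1 library; the part of depth was not tested. The intervals of the Col1a1-high and Col1a1-low cells lie apart for both genes in both libraries.

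**Figure D2:**
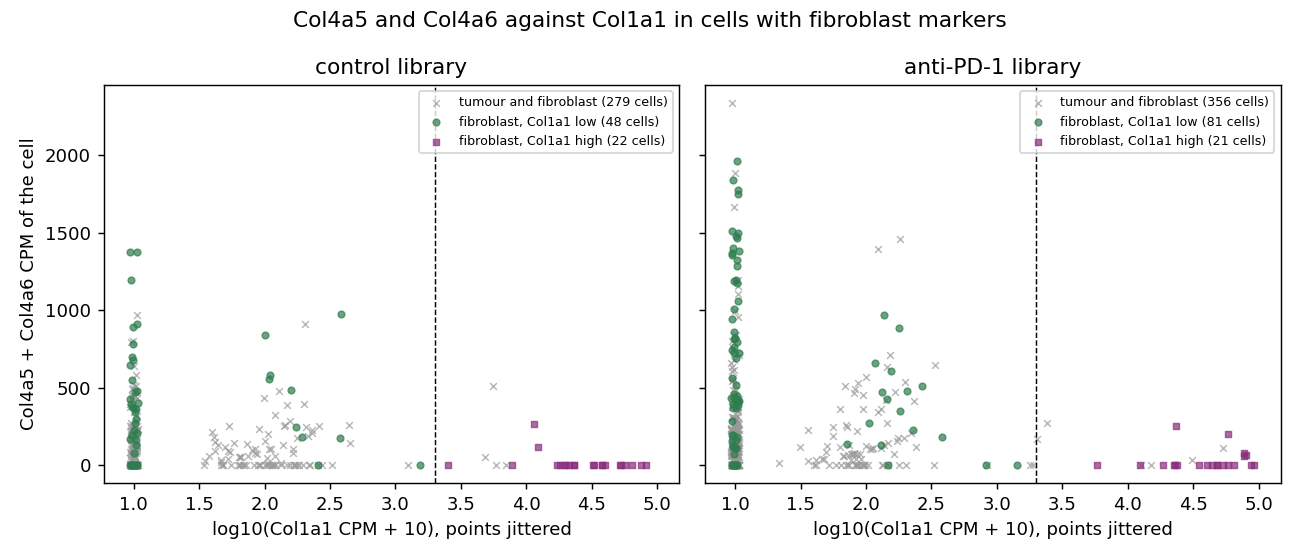
Each point is a cell with fibroblast markers; the x axis is log10 of Col1a1 CPM plus 10, with a small random shift, and the y axis the summed CPM of Col4a5 and Col4a6 in that cell, for the control (left) and anti-PD-1 library (right). The dashed line is the split at 2000 CPM. Most of the Col1a1-high squares, 22 and 21, lie at 0. The Col1a1-low circles, 48 and 81, and the crosses of tumour and fibroblast cells, 279 and 356, spread further upward.

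In tumour cells the Col4a5 and Col4a6 pair was low and was more than 2-fold higher in the anti-PD-1 library. Col4a5 was 9.08 CPM (8.44 to 9.76; 739 UMIs) in the control and 19.4 CPM (18.5 to 20.4; 1690 UMIs) in the anti-PD-1 library, a log2 ratio of 1.10 (0.97 to 1.22). Col4a6 was 7.51 CPM (6.93 to 8.13; 611 UMIs) and 20.03 CPM (19.1 to 20.996; 1742 UMIs), a log2 ratio of 1.42 (1.28 to 1.55). Macrophages had 2.43 and 4.18 CPM of Col4a5 and 2.03 and 4.44 CPM of Col4a6, from 5 to 17 UMIs, so the tumour cells lay above that background in both libraries. The immune background was itself higher in the anti-PD-1 library, with intervals of the ratio that include 0.

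The higher level came with more cells that had a UMI. At 3000 UMIs per cell, the share of tumour cells with a Col4a5 UMI was 2.74% (2.22 to 3.35) in the control and 5.98% (5.33 to 6.68) in the anti-PD-1 library, beside 0.800% (0.097 to 2.86) and 0.524% of macrophages. For Col4a6 the shares were 1.98% (1.54 to 2.51) and 6.25% (5.58 to 6.97), beside 1.20% (0.248 to 3.47) and 0.785% of macrophages, so that for both genes the control share, unlike the CPM, lies within the interval of the macrophage share. Unthinned, 16.4% and 25.1% of tumour cells had a Col4a5 UMI and 12.9% and 25.3% a Col4a6 UMI, in spite of the lower median depth of the anti-PD-1 cells. The UMIs were spread over many cells: the top 1% of tumour cells held 18.0% of Col4a5 UMIs in the control and 12.5% in the anti-PD-1 library, and no tumour cell had more than 8 or 11 of them. UMIs of both genes fell in the same tumour cell 7 times in 3428 control cells, 3.75 times the product of the single shares, and 32 times in 4834 anti-PD-1 cells, 1.77 times the product; these counts are small. The ratio of Col4a5 to Col4a6 UMIs was 1.21 (1.09 to 1.35) in control tumour cells and 0.97 (0.91 to 1.04) in the anti-PD-1 cells.

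For a background to these ratios, 11796 genes had at least 100 UMIs over both libraries in tumour cells, and 4 of the 6 type IV collagen genes were among them. At least 2-fold higher in the anti-PD-1 library were 0.941% of those genes (111), which included Col4a5 and Col4a6, 2 of the 4 measured members. At least 2-fold lower were 3.44% (406), none of them a member. Ordered by the ratio from the highest, Col4a6 was at rank 31, Col4a5 at 81, Col4a2 at 1889 and Col4a1 at 2176. The median log2 ratio was 0.69 over the 4 members and -0.002 over all genes tested, of which 49.7% had a ratio above 0.

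Tumour and fibroblast cells had more of the pair than tumour cells in each library. Col4a5 was 40.8 CPM in the control and 70.5 CPM in the anti-PD-1 library, a log2 ratio of 0.79 (0.54 to 1.04), and Col4a6 46.8 and 74.2 CPM, a log2 ratio of 0.66 (0.43 to 0.90). The Col4a5 interval overlaps that of tumour cells, and the Col4a6 interval lies below it. In these cells 0.157% of 9544 genes were at least 2-fold higher and 0.849% at least 2-fold lower, and none of the 4 measured members passed. In Col1a1-low fibroblast-marker cells the log2 ratios were 0.85 (0.42 to 1.31) and 0.56 (0.13 to 0.996). There 0.587% of 2387 genes were at least 2-fold higher and 0.545% at least 2-fold lower, and again none of the 4 measured members passed. These calls depended on the tumour-marker rule. With cells that had at least 1 tumour marker UMI taken as tumour cells, the ratios of tumour and fibroblast cells were 1.21 for Col4a5 and 0.97 for Col4a6, beside 1.15 and 1.40 in tumour cells by the same rule, so that the order of the Col4a5 ratios turned. With markers other than Hmga2 the Col4a6 ratio was 0.31. In Col1a1-low cells Col4a5 reached 1.16, 1.18 and 1.03 with markers other than Hmga2, Igf2bp2 and Wnt7b. Fibroblast markers summed to a median of 99.9 and 122 CPM per tumour cell, 1646 and 1818 CPM per tumour and fibroblast cell and 4755 and 4524 CPM per Col1a1-low cell. Cells with fibroblast markers whose tumour markers lay between the cuts of 200 and 500 CPM, 170 and 279 cells, had Col4a5 at 89.4 and 228 CPM and Col4a6 at 118 and 235 CPM, between the tumour and fibroblast and the Col1a1-low levels.

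Among cells that had the tumour markers and at least 1 UMI of the fibroblast markers, the pair was higher at each step up in those markers. In control cells with no fibroblast marker UMI, Col4a5 was 4.87 CPM (782 cells), close to the 6.36 CPM of cells above 0 and under 100 CPM of those markers. It was 10.5 CPM between 100 and 400, 18.2 CPM between 400 and 1000, 37.6 CPM between 1000 and 3000 and 65.8 CPM in the 51 cells at 3000 CPM and over. The anti-PD-1 cells had Col4a5 at 15.7, 14.6, 20.2, 34.1, 53.2 and 140 CPM in the same 6 ranges. Col4a6 was 5.52 CPM in the control and 16.9 CPM in the anti-PD-1 library with no fibroblast marker UMI, 4.67 and 13.5 CPM in the next range, and 90.1 and 139 CPM in the last. Col4a1 was 446 and 587 CPM, then 425 and 482 CPM, and 944 and 1346 CPM in the last range, a smaller climb. The median depths of the 6 ranges were 11682.5, 24166.5, 17705.5, 15943, 13838 and 9714 UMIs in the control and 9491, 20120, 15055, 12142, 13018 and 9825 UMIs in the anti-PD-1 library. Over the 5 ranges above 0 the control depth thus fell at each step as Col4a5 climbed, and the anti-PD-1 depth fell at all steps but 1; the part of depth in this climb was not tested.

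The libraries differed in every range of fibroblast markers for both genes of the pair. In cells with no fibroblast marker UMI the log2 ratio was 1.69 (1.23 to 2.16) for Col4a5 and 1.61 (1.18 to 2.05) for Col4a6. Between 1000 and 3000 CPM it was 0.50 (0.21 to 0.80) and 0.49 (0.21 to 0.78). At 3000 CPM and over it was 1.08 (0.56 to 1.64) and 0.62 (0.16 to 1.11). The range with 100 to 400 CPM held 1332 control and 2251 anti-PD-1 cells, and there the ratios were 0.94 (0.76 to 1.13) and 1.38 (1.19 to 1.58).

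**Figure D3:**
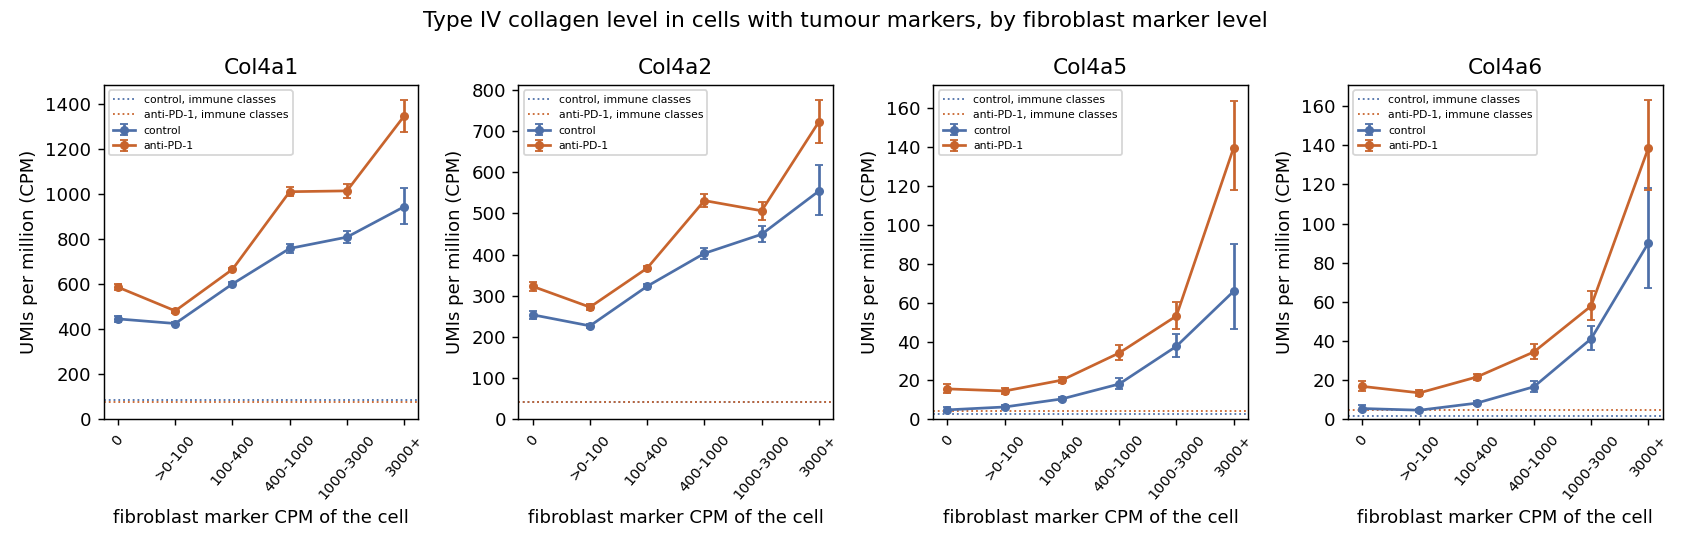
Level of 4 type IV collagen genes (y axis, CPM, from 0) in cells with tumour markers, by the cell's level of fibroblast markers (x axis, CPM, 6 ranges), for the control and anti-PD-1 library; bars are exact 95% Poisson intervals, and dotted lines are the level summed over the immune classes. The anti-PD-1 points lie above the control points in each range, and Col4a5 and Col4a6 reach 140 and 139 CPM in the last range of the anti-PD-1 library.

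Tumour cells were also divided by whether they held a UMI of 7 genes that an earlier look at these data had pointed to. Such a division depends on depth, since deeper cells are more likely to hold a UMI. Gria3, a glutamate receptor subunit, was at 11.8 and 35.7 CPM in tumour cells and was found in 651 control and 1824 anti-PD-1 cells. With a Gria3 UMI, Col4a1 was 511 CPM in the control and 506 CPM in the anti-PD-1 library (log2 ratio -0.01, -0.05 to 0.02), whereas without one it was 543 and 763 CPM (0.49, 0.47 to 0.51). Col4a2 did the same, at -0.01 (-0.05 to 0.03) with and 0.52 (0.49 to 0.55) without a Gria3 UMI. Col4a5 and Col4a6 were higher in the anti-PD-1 library on each side: 0.67 (0.48 to 0.88) and 0.94 (0.72 to 1.15) with a Gria3 UMI, and 1.27 (1.10 to 1.44) and 1.65 (1.47 to 1.82) without. Il24, a cytokine gene, went from 29.9 to 2.81 CPM in tumour cells. In cells without an Il24 UMI the log2 ratio of Col4a1 was 0.12 (0.10 to 0.14), and with one 0.49 (0.44 to 0.55). For Mki67 the Col4a5 ratio was 1.11 with and 0.84 without a UMI, and the Col4a6 ratio 1.35 and 1.87. For the interferon-induced gene Ifit3 the Col4a5 ratio was 0.83 with and 1.29 without a UMI. Across the 14 sets of tumour cells so made, with or without Gria3, Dkk2, Il24, Mki67, Ncam1, Vegfa or Ifit3, the interval of the ratio lay above 0 for Col4a5 and for Col4a6 in each.

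Col4a3 and Col4a4, chains of the kidney and alveolar network, were almost not detected. Col4a3 had 12 UMIs in the control library and 4 in the anti-PD-1 library, which is 0.106 CPM (0.0547 to 0.185) and 0.0347 CPM (0.00944 to 0.0887). Col4a4 had 13 and 11 UMIs, 0.115 and 0.0953 CPM. In tumour cells each library had 2 Col4a3 UMIs, and Col4a4 had 2 and 5. The interval of the whole-library log2 ratio included 0 for Col4a3 (-3.70 to 0.11) and for Col4a4 (-1.57 to 1.01). Both fell under 100 UMIs and were not compared further.

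Laminins, which form the other network of basement membranes, were measured for 8 of 11 chains in tumour cells. None was 2-fold higher or lower, 5 had a ratio above 0, and the median log2 ratio was 0.18. Lama5 was 214 CPM in the control and 311 CPM in the anti-PD-1 library (0.54, 0.51 to 0.57) and Lamb1 437 and 554 CPM (0.34, 0.32 to 0.36). Lamc1, the common gamma chain, was 430 and 417 CPM (-0.04, -0.06 to -0.02), and Lama4, a chain of vessel laminin, 2.95 and 1.77 CPM (-0.74, -1.04 to -0.44). Lama4 in endothelial cells was 869 and 1299 CPM, so that tumour cells held little of it. Macrophages had Lama4 at 4.05 and 1.83 CPM, with intervals that overlap those of tumour cells, which thus lay not above that background.

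Other basement membrane components included 11 measured of 17, of which 4 had a ratio above 0 and none passed 2-fold (median log2 ratio -0.04). Hspg2, which encodes perlecan, was 2132 and 3098 CPM (0.54, 0.53 to 0.55), and Col18a1, the source of endostatin, 1434 and 2361 CPM (0.72, 0.71 to 0.73). Nid2, a nidogen, was 2.30 and 1.58 CPM (-0.55, -0.87 to -0.22), and the proteoglycan Bgn 26.6 and 15.9 CPM (-0.74, -0.84 to -0.64). Macrophages had Nid2 at 29.2 and 46.2 CPM, so the tumour-cell level of Nid2 lay under that background. The nidogen gene Nid1 was far higher in tumour cells, at 1465 and 1211 CPM (-0.28, -0.29 to -0.26).

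Of the genes that fold, modify and export collagen, 20 of 21 were measured, and the median log2 ratio was 0.05. P4ha3, a catalytic subunit of prolyl hydroxylase, was the only 1 at least 2-fold higher, beside 0.941% of all genes tested in tumour cells. It was at 12.1 and 27.6 CPM (1.19, 1.08 to 1.30). P3h3, of the prolyl hydroxylase family, was 180 and 264 CPM (0.55, 0.52 to 0.58) and Colgalt1, a collagen galactosyltransferase, 264 and 354 CPM (0.42, 0.40 to 0.45). Serpinh1, the collagen chaperone HSP47, was 2457 and 2312 CPM (-0.09, -0.10 to -0.08), and P3h2 5.75 and 4.27 CPM (-0.43, -0.63 to -0.23).

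All 7 genes that cross-link the network or phosphorylate it were measured, with 3 above 0, none past 2-fold and a median of -0.00. Pxdn, the peroxidasin that forms sulfilimine bonds between type IV collagen chains, was 299 and 351 CPM (0.23, 0.21 to 0.26). Loxl2, a lysyl oxidase that acts on this network, was 202 CPM in both libraries (-0.00, -0.03 to 0.03), and Loxl3 was 173 and 231 CPM (0.42, 0.39 to 0.45).

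Receptors and anchors were measured for 18 of 20, and 3 were at least 2-fold lower in the anti-PD-1 library, beside 3.44% of all genes tested in tumour cells. These were Itga2 (3.26 and 1.46 CPM; -1.16, -1.47 to -0.85), a collagen-binding integrin chain, Itga9 (3.81 and 1.89 CPM; -1.01, -1.30 to -0.74) and Itgb3 (4.29 and 2.08 CPM; -1.04, -1.31 to -0.78), and all were low. Itgb1, the common beta chain of the collagen receptors, was 1110 and 1255 CPM (0.18, 0.16 to 0.19), and Itgb4, the beta chain of a laminin receptor, 12.9 and 21.4 CPM (0.73, 0.62 to 0.84).

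Proteases that cut type IV collagen, and their inhibitors, were measured for 19 of 21, with 12 above 0 and a median of 0.26. At least 2-fold higher was 1 and at least 2-fold lower were 2, beside 0.941% and 3.44% of all genes tested in tumour cells. Mmp10 was at least 2-fold higher, at 6.08 and 13.7 CPM (1.17, 1.02 to 1.32), and Mmp3, a related stromelysin, was 301 and 529 CPM (0.81, 0.79 to 0.83). Mmp13, a collagenase, was 17.6 and 7.59 CPM (-1.21, -1.35 to -1.08) and the inhibitor Timp3 2.14 and 0.84 CPM (-1.35, -1.76 to -0.95). The inhibitors at higher levels did not go down: Timp2 was 560 and 840 CPM (0.58, 0.57 to 0.60) and Timp1 161 and 165 CPM (0.04, 0.001 to 0.07). The cathepsin genes Ctsb and Ctsl were 1121 and 1427 CPM (0.35, 0.34 to 0.36) and 1874 and 2247 CPM (0.26, 0.25 to 0.27). In tumour cells each of these 6 lists had genes on each side of 0, and all 4 measured type IV collagens were above 0. Of all genes tested there, 49.7% were above 0. The lists differ in length, and a list of 4 falls on 1 side more easily than a longer one, so no contrast is drawn from these counts.

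**Figure D4:**
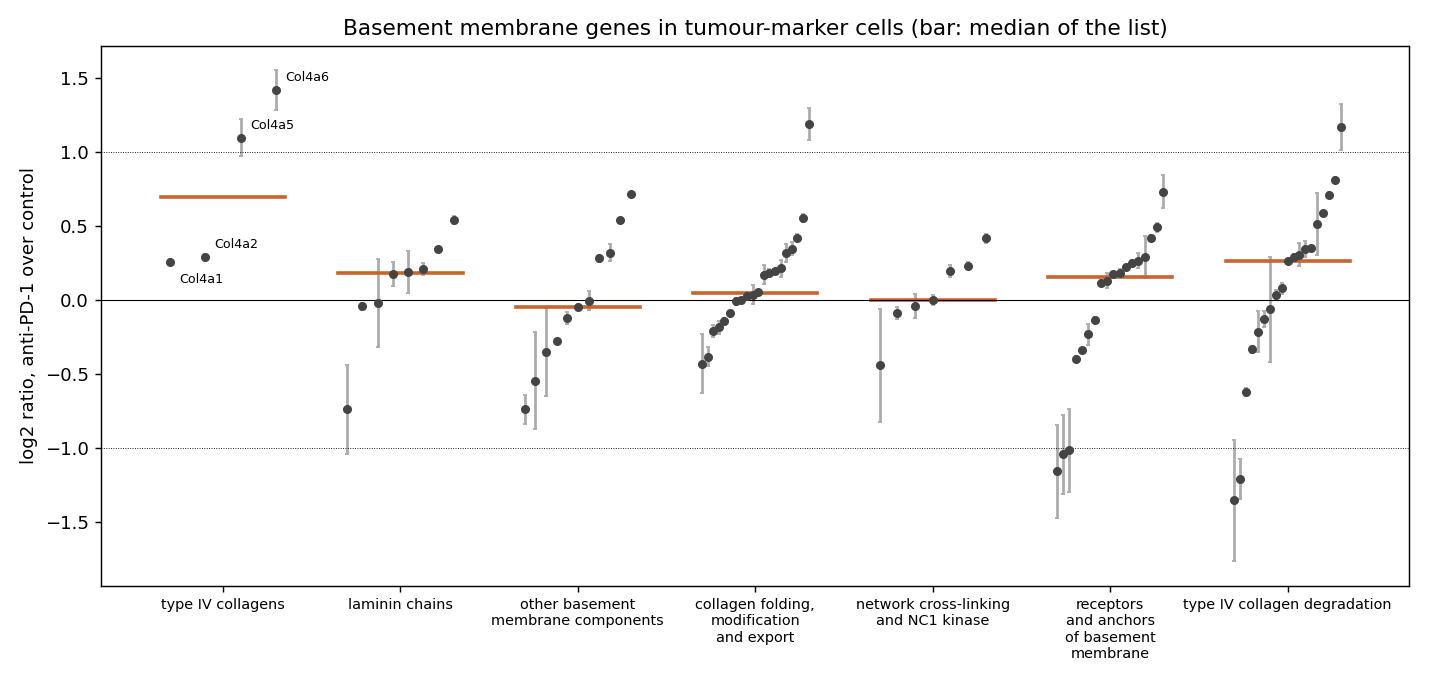
Log2 ratio of the anti-PD-1 over the control library in tumour cells (y axis) for each measured gene of 7 lists (x axis, genes ordered by their ratio); points are genes, bars exact 95% intervals, orange lines the median of each list and dotted lines 2-fold. Col4a5 and Col4a6, at 1.10 and 1.42, lie above the 2-fold line, and Col4a1 and Col4a2, at 0.26 and 0.29, under it.

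In tumour and fibroblast cells the medians were 0.53 for the type IV collagens, 0.17 for laminins, 0.39 for other basement membrane components, 0.04 for folding and export, 0.25 for cross-linking, 0.16 for receptors and 0.36 for degradation, beside -0.04 for all genes, and no gene of these lists was past 2-fold. There all 6 measured laminins were above 0, as were the 4 type IV collagens, of which Col4a2 turned to -0.0056 without Hmga2 among the tumour markers. Of all genes tested in tumour and fibroblast cells, 44.2% were above 0. In the Col1a1-low fibroblast-marker cells the other basement membrane components measured, 6 of 17, were all above 0, with a median log2 ratio of 0.55 beside 0.77 for the 4 type IV collagens and -0.002 for all genes. The 3 measured laminins and the 4 type IV collagens were all above 0 there too, beside 49.8% of all genes tested in these cells. Sparc, which binds type IV collagen, was 833 and 1354 CPM (0.70, 0.50 to 0.90), and Tinagl1, a basement membrane glycoprotein, 77.7 and 146 CPM (0.91, 0.26 to 1.60). Loxl2 was 490 and 822 CPM (0.75, 0.49 to 1.01). The protease gene Ctss, which macrophages express, was 478 and 144 CPM (-1.73, -2.12 to -1.35) in these cells. The macrophage gene C1qb was 200 and 112 CPM in them; the part of macrophage RNA in these ratios was not tested.

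Genes with the most similar pattern over classes were ranked by Pearson's r of log2(CPM + 1) over 12 points (6 classes with at least 50 cells in each library), among 11555 genes. The Col1a1-low and Col1a1-high cells, which differ in Col4a5 and Col4a6, were pooled into a fibroblast class for this ranking. The points share libraries and depth, so r is a description only, and endothelial cells, which were too few, do not enter it. Nid1, which encodes the linker nidogen, came first for Col4a1 (r = 0.989); in tumour cells it went the other way between the libraries, at 1465 and 1211 CPM (log2 ratio -0.28, -0.29 to -0.26), where Col4a1 was at 0.26. Next came Obsl1 and the procollagen protease Bmp1. For Col4a2 the order was Pcolce (0.992), an enhancer of that protease, Ptov1 and Crtap. For Col4a5 it was Hoxc4 (0.968), Pcdhga8 and Eda, and for Col4a6 Tmem59 (0.975), Medag and Pdgfra.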

How the data were processed

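Single-cell RNA counts of 2 tumour libraries were used. The deposited values are raw counts of UMIs per gene and barcode, per the file headers. Libraries were made with a 10x Genomics Flex kit, in which probes bind chosen genes, per the labels, which also cite a 3' protocol. The matrix header gives Cell Ranger 9.0.1, whereas version 7.0.1 and mm10 stand in the submitters' processing notes. Probe counts depend on each probe, so levels were compared between classes and libraries, not between genes.

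Kept were barcodes of 300 or more genes whose mitochondrial share did not exceed 20% (8395 control cells, 9422 anti-PD-1 cells). Tumour cells needed 5 marker UMIs and 500 CPM. Other classes needed under 200 CPM of tumour markers, at least 4 UMIs of their own markers and 1000 CPM (fibroblast, endothelial, mural), 1500 (T or NK cells) or 2000 (macrophage, neutrophil, dendritic or B cell), with no second class past its cut. Gsn and Pdgfra were left out of the fibroblast markers, because tumour-marker cells held them. Summed UMIs were scaled to the class total. Intervals are exact Poisson (levels), exact binomial (Clopper-Pearson, shares) and exact conditional binomial (ratios), at 95%, and 3 UMIs were the limit for a count of 0. Genes with at least 100 UMIs over both libraries counted as measured, and at least 2-fold as different. Named genes were up to 4 of each list by size of the log2 ratio and up to 2 by level in tumour cells, chosen from among these by role in the text, and the 3 most similar genes of each member. Timp1 and Timp2 were named beside Timp3 after their values were seen. Values in other classes are of genes so ranked in that class, after their values were seen.

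The members, markers and lists were chosen with earlier results of these data known, so they are not independent of them. Tools were Python 3.11.15, numpy 2.4.6, scipy 1.17.1 and pandas 2.3.3; the count of 2-fold genes was tested on simulated data. Alternatives were other marker cuts, markers left out in turn, thinning, per-cell means, other scalings and filters.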

Additional observations from a re-analysis of the deposited data

Results flagged for a closer look

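Some ratios ran against those of the other classes. In the Col1a1-high fibroblast-marker cells (22 and 21 cells) the Col4a1 log2 ratio of anti-PD-1 over control was -0.38, against 0.26 in tumour, 0.39 in tumour and fibroblast, 0.76 in Col1a1-low and 0.47 in endothelial cells. In the 7 mural cells of each library it was -0.37 for Col4a1. For Col4a2 in mural cells it was -0.31, against 0.29, 0.25, 0.77 and 0.46 in the same 4 other classes. Cells outside the classes ran the same way. In cells given no class it was -0.09 (-0.12 to -0.06) for Col4a1 and -0.24 (-0.28 to -0.21) for Col4a2. In cells with both tumour and endothelial markers it was -0.15 (-0.27 to -0.04) and -0.41 (-0.57 to -0.25). With 1 library a group, these differences were not tested.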

How the results depend on the processing

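No paired analysis was possible because each group has 1 library and no replicate numbers. Under 18 alternatives, of which 4 were chosen after seeing the data, the tumour-cell log2 ratios stayed above 0 for all 4 measured members: from 0.22 to 0.40 for Col4a1, 0.25 to 0.39 for Col4a2, 1.04 to 1.69 for Col4a5 and 1.36 to 1.64 for Col4a6. Outside counting error of the reported value, Col4a1 and Col4a2 were 0.22 and 0.25 with at least 10 tumour marker UMIs, 0.29 and 0.31 with at least 1, 0.32 and 0.39 thinned to 3000 UMIs, 0.31 and 0.34 as means of per-cell CPM, and 0.40 and 0.35 in cells with no fibroblast marker UMI. Col4a1 alone moved to 0.28 without cells over 3 times the median UMI count, 0.29 with markers other than Hmga2 and 0.23 with the fibroblast markers cut at 400 CPM. Col4a5 moved to 1.69 in cells with no fibroblast marker UMI; Col4a6 moved to 1.61 there, to 1.64 thinned, to 1.58 as a mean of per-cell CPM and to 1.60 with tumour markers at 1000 CPM or more. The cause was not tested. The lowest and highest ratios were 0.57 and 1.21 for Col4a5 and 0.31 and 0.97 for Col4a6 in tumour and fibroblast cells, 0.82 and 1.18 and 0.36 and 0.91 in Col1a1-low cells, and 0.41 and 0.68 for Col4a1 in endothelial cells.

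The filter set the gene counts by construction: 268 higher and 2770 lower genes with at least 1 UMI, and 53 and 175 with at least 500. Signs turned as follows. With tumour markers other than Hmga2, Col4a2 in tumour and fibroblast cells was -0.0056 and Col4a1 in Col1a1-high cells 0.29. Col4a2 in Col1a1-high cells (reported as 0.11) was -0.76 with at least 1 tumour marker UMI, -0.0777 without cells over 3 times the median UMI count, -0.65 thinned, -0.0292 and -0.28 with markers other than Igf2bp2 and other than Wnt7b, and -0.0677 with the fibroblast markers cut at 400 CPM. The median gene of the Col1a1-high cells lay at -0.12, and of the other 4 classes within 0.04 of 0. Col4a3 and Col4a4 had too few UMIs to compare in any class, as had Col4a5 and Col4a6 in endothelial and mural cells, and the cause was not tested.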
